A study of Mus musculus with 3 samples.

Results

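Integrins were followed here through 10 subunit genes chosen for stromal cells, Itgb1, Itgb3, Itgb5, Itgav, Itga1, Itga3, Itga4, Itga5, Itga6 and Itga11, among the 17097 genes that had a probe set of their own. Every probe set annotated to exactly 1 of these genes was taken, which gave 26 of 45141 probe sets and covered 9 of the 10 genes. The probe annotation used here listed no probe set for Itga11, which is therefore not analysed here. The cells were mesenchymal progenitors (PaS+ in the labels) sorted from the bone marrow of adult C56Bl/6 mice (so spelled in the labels) aged 8 weeks, cultured in MesenCult medium in 1% oxygen for 7 days and transduced overnight with a lentiviral short hairpin RNA (shRNA). The hairpin was directed against HIF-2α on 1 array, against HIF-1α on 1 array and was a control on 1 array, with RNA collected 4 days after transduction. All 3 groups share the low oxygen and the lentivirus, so no array shows untransduced cells or cells in normal oxygen. Each group is 1 array and no second culture or animal is named. Replicate error is therefore unknown, no test was possible, and every difference below is a description of these arrays.

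Integrins are receptors of the cell surface made of 1 α and 1 β subunit, which bind the extracellular matrix outside the cell and the actin cytoskeleton inside it. The β1 chain (Itgb1) pairs with most α chains of stromal cells: with α1 and α11 to bind collagen, α5 to bind fibronectin, α3 and α6 to bind laminin, and α4 to bind fibronectin and VCAM-1. The αv chain (Itgav) pairs with β3 (Itgb3), β5 (Itgb5) and others, and these pairs recognise ligands with an RGD sequence such as vitronectin and fibronectin. In bone marrow, integrins hold stromal cells on their matrix and blood stem cells on stromal cells.

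The hairpins act on the HIF transcription factors, so the 300 bases around the annotated starts of the subunit genes (250 before and 50 after, from RefSeq on GRCm38.p6) were searched for the core letters of the hypoxia response element. The letters were ACGTG and GCGTG, searched on both strands. Of 9 such windows, which belong to 8 of the 10 genes, 2 held a match, against 43.8% of all 32851 windows. The matches were GCGTG from position -86 to -82 of Itgb5, relative to the start, and GCGTG from position 9 to 13 of Itga4. Itga6 and Itgb3 had no entry. The windows of Itgav (chr2:83724147-83724446, plus strand), with no match, and Itgb5 (chr16:33829415-33829714, plus strand), with 1, are shown because they encode the chains of 1 receptor, αvβ5, and both genes were above the nonspecific level. The Itgav window lies inside the gene, whose listed start is base 83722303, so the bases around that listed start were not searched. Capitals mark the match. A match describes the letters and is not a bound site.
Itgav: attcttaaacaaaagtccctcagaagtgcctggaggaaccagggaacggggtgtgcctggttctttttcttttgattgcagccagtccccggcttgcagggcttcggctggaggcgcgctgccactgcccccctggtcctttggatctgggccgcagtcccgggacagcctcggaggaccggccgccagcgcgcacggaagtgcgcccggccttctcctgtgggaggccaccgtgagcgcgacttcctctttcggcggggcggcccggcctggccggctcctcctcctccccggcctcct
Itgb5: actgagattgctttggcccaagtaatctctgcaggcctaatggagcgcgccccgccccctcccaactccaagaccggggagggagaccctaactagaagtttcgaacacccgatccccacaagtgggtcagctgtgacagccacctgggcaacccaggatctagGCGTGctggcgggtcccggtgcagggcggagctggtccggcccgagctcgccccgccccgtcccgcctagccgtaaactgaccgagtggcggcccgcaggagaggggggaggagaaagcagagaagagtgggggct

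The targeted genes were read first, as a check of the labels. Hif1a stood at 332.4 on the HIF-2α array, at 332.4 on the HIF-1α array and at 352.1 on the control array, so it did not separate the hairpins. Epas1, which encodes HIF-2α, read 3.21, 9.44 and 5.09 in the same order, all dim. The arrays are therefore called shHIF-2a, shHIF-1a and control after their titles, and every direction rests on those labels. Intensities are the deposited RMA values on a linear scale. The level below which a value is called under background is 3.47, the highest of 23 nonspecific control probe sets on any array, and 36.7%, 36.2% and 34.2% of probe sets other than controls lay above it on the shHIF-2a, shHIF-1a and control arrays. The 12 probe sets for spiked hybridisation controls that passed that level had a median log2 difference of -1.02 on the shHIF-2a array and 0.08 on the shHIF-1a array, each against control. The part this has in the differences below was not tested. Markers of the sorted cell type were read: 10 of 11 mesenchymal progenitor markers on the array were above the nonspecific level on every array. The list held 12 genes, of which Ly6a had no probe set of its own and was not read.

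Of the 9 subunit genes on the array, 6 were above the nonspecific level on every array and 3 were not on any. The genes above it were the β chains Itgb1, Itgb3 and Itgb5 and the α chains Itgav, Itga3 and Itga6, through 11 probe sets. The other 15 probe sets lay under it on all 3 arrays, between 0.75 and 3.02. They include the only probe sets of Itga1 and Itga5 and all 5 of Itga4. The α chain that pairs with β1 to bind fibronectin (Itga5) read 1.58, 1.58 and 1.28 on the shHIF-2a, shHIF-1a and control arrays. The collagen-binding chain Itga1 read 2.46, 2.85 and 2.46. For Itga4, the α chain of the VCAM-1 receptor, the 5 probe sets lay between 0.86 and 1.21. A probe set under this level gives only an upper bound for its transcript, so no fold is given for these genes. By the nonspecific level of the shHIF-1a array alone, 2.29, Itga1 was above background on that array. Probe sets differ in how well they bind, so levels are compared between arrays and not between genes.

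**Figure D1:**
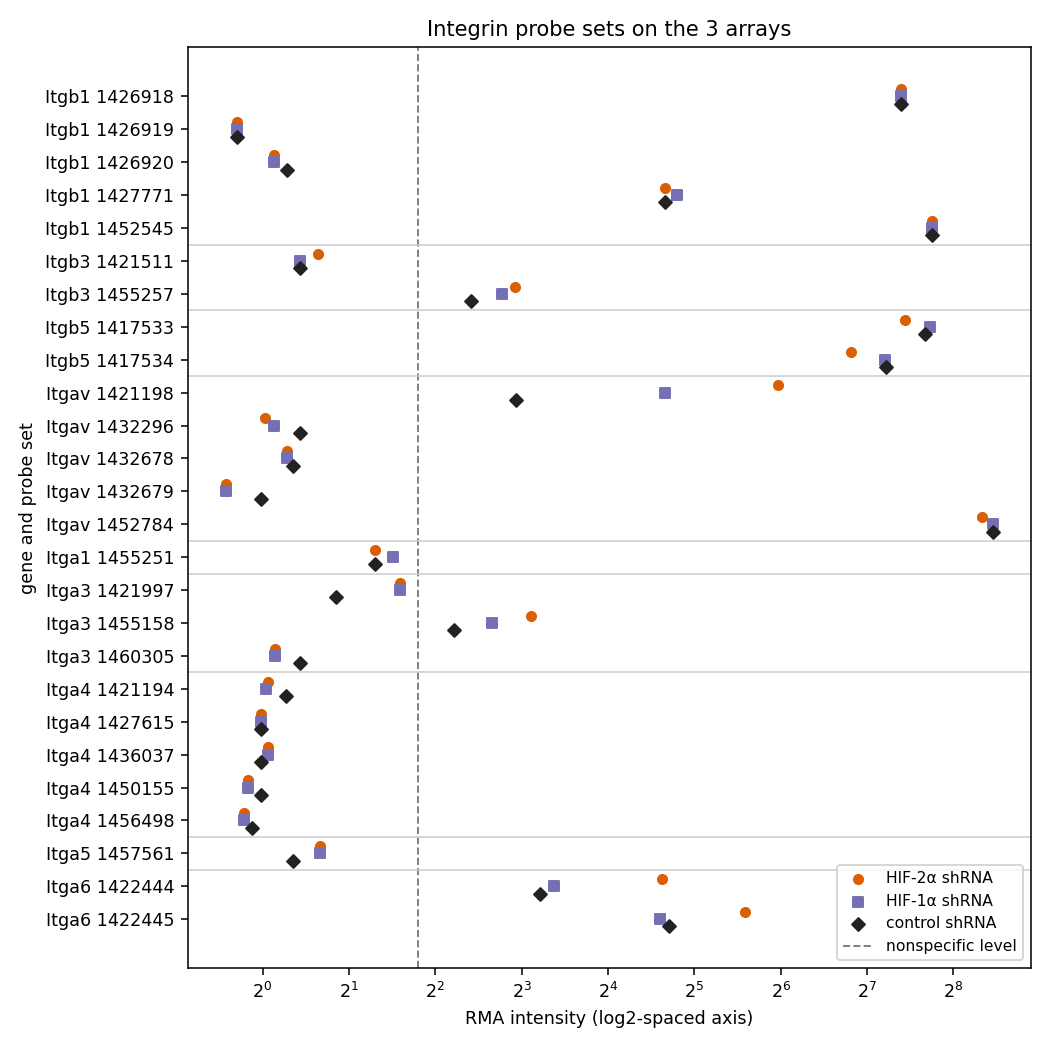
Intensity of the 26 integrin probe sets (rows, by gene) on a log2-spaced axis, with 1 point for each array and a dashed line at the nonspecific level of 3.47. The 11 probe sets right of the line belong to Itgb1, Itgb3, Itgb5, Itgav, Itga3 and Itga6, and probe sets of 1 gene stand on both sides of the line for Itgb1, Itgb3, Itgav and Itga3.

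Represented by its brightest probe set, no subunit gene was 2-fold apart in any of the 3 comparisons. The background was 8.14% of the 8886 genes counted for the shHIF-2a array against control, 4.14% of 8796 for the shHIF-1a array against control and 2.02% of 8878 for the shHIF-2a against the shHIF-1a array. A gene was counted where its brightest probe set was above the nonspecific level on at least 1 of the arrays compared, and called where the arrays differed at least 2-fold with lower values raised to that level. The median log2 difference over the 6 subunit genes was 0.26, against 0.14 over all genes counted, for the shHIF-2a array and 0.03, against 0.10, for the shHIF-1a array. Between the shHIF-2a and shHIF-1a arrays the medians were 0.08 and 0.00. These are mRNA levels of bulk cultures, in which fewer cells of a type and less RNA per cell cannot be told apart.

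The β1 chain, shared by most stromal integrins, read the same on all arrays by 2 of its 3 probe sets above the nonspecific level. Itgb1 had an intensity of 214.8 on the shHIF-2a, shHIF-1a and control arrays alike on probe set 1452545_PM_a_at, and of 168.2 on each array on probe set 1426918_PM_at. Another Itgb1 probe set, 1427771_PM_x_at, read 25.3 on the shHIF-2a array, 27.9 on the shHIF-1a array and 25.3 on the control array. The _x_at ending marks probes that may also bind other transcripts. Values equal to the last digit were common in this table: among the 12069 probe sets above the nonspecific level on all arrays, 16.4% were equal on the shHIF-2a and control arrays, 20.5% on the shHIF-1a and control arrays and 32.4% on the shHIF-2a and shHIF-1a arrays. Of the 11 integrin probe sets above that level, 3, 3 and 2 were equal in those pairs.

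The β partners of αv stood on opposite sides of control on the shHIF-2a array, Itgb5 lower and Itgb3 higher, both by less than 2-fold. Itgb5 read 173.9 on the shHIF-2a array, 212.2 on the shHIF-1a array and 203.3 on the control array with probe set 1417533_PM_a_at, and 112.9, 147.2 and 149.4 with probe set 1417534_PM_at. Both probe sets were thus lowest on the shHIF-2a array, with log2 differences of -0.23 and -0.40 from control and of -0.29 and -0.38 from the shHIF-1a array. On the shHIF-1a array the differences from control were 0.06 and -0.02. For scale, the pooled SD between probe sets of 1 gene was 0.36 for the shHIF-2a array against control, over 2712 genes, and 0.19 for the shHIF-2a against the shHIF-1a array, over 2936 genes. Over the 4 integrin genes with several measured probe sets it was 1.01 and 0.46. Those 2 values rest mostly on Itgav and are no scale for Itgb5. The Itgav probe sets lay at 3.03 and -0.12 against control and at 1.31 and -0.12 against the shHIF-1a array. The pooled SD compares probe sets on the same arrays and holds no variation between cultures. Whether it is only technical was not tested. Among the 3279 probe sets whose mean intensity over the arrays (geometric) was at least 64, 11.4% were as low as -0.23 and 4.73% as low as -0.40 against control.

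Itgb3, the β chain of the vitronectin receptor αvβ3 of osteoclasts, was dim. Its probe set 1455257_PM_at read 7.61 on the shHIF-2a array, 6.86 on the shHIF-1a array and 5.34 on the control array, and was lowest on control. The log2 difference from control was 0.51 on the shHIF-2a array, a value that 20.5% of the 12069 probe sets and 32.2% of those as dim (geometric mean under 8) matched or passed, and 0.36 on the shHIF-1a array. With 32 added to every intensity these differences were 0.09 and 0.06, and after cyclic loess scaling 0.27 and 0.16. The other Itgb3 probe set was under the nonspecific level on every array.

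The probe sets of Itgav disagreed. The brightest, 1452784_PM_at, read 322.0 on the shHIF-2a array, 350.9 on the shHIF-1a array and 350.9 on the control array, a log2 difference of -0.12 for the shHIF-2a array and of 0.00 for the shHIF-1a array. Probe set 1421198_PM_at read 62.7 on the shHIF-2a array, 25.3 on the shHIF-1a array and 7.67 on the control array. It was 8.17-fold higher than control on the shHIF-2a array and 3.30-fold higher on the shHIF-1a array, with log2 differences of 3.03 and 1.72. The shHIF-2a array was 2.47-fold higher than the shHIF-1a array. Of the 12069 probe sets, 13 differed by as much upward between the shHIF-2a and control arrays, this one included, and 46 between the shHIF-1a and control arrays. The remaining 3 Itgav probe sets were under the nonspecific level on every array, at most 1.35. The files do not say which part of the transcript each probe set reads, and what sets 1421198_PM_at apart from 1452784_PM_at was not tested.

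Itga6, a laminin-binding α chain, was higher on the shHIF-2a array by both of its probe sets. Probe set 1422445_PM_at read 47.9 on the shHIF-2a array, 24.2 on the shHIF-1a array and 26.1 on the control array. Probe set 1422444_PM_at read 24.6, 10.4 and 9.27 in the same order. The shHIF-2a array thus stood apart from the others, which lay close together. It was 1.84-fold and 2.65-fold higher than control and 1.98-fold and 2.37-fold higher than the shHIF-1a array. On the shHIF-1a array the log2 differences from control were -0.11 and 0.16. Differences as high were found for 9.19% and 2.51% of the 12069 probe sets against control and for 0.82% and 0.348% between the shHIF-2a and shHIF-1a arrays. Itga6 had the widest range over the arrays among the 6 genes by brightest probe set, 0.99 on the log2 scale. Among 8250 genes above the nonspecific level on every array, the 3 whose centred log2 values lay nearest to those of Itga6 were the chromosomal passenger gene Cdca8 (Euclidean distance 0.05), Clip4 (0.06) and the uridine kinase gene Uck2 (0.07). This likeness rests on 3 arrays.

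Itga3, the other laminin-binding α chain, was measured near the nonspecific level. Its probe set 1455158_PM_at read 8.64 on the shHIF-2a array, 6.30 on the shHIF-1a array and 4.64 on the control array. The shHIF-2a array was 1.86-fold and the shHIF-1a array 1.36-fold higher than control. These are log2 differences of 0.90 and 0.44, which were 0.66 and 0.24 after cyclic loess scaling and 0.15 and 0.06 with 32 added to every intensity. The other Itga3 probe sets lay under the nonspecific level, and of those 1421997_PM_s_at read 3.02, 3.02 and 1.80 in the same order. Among probe sets as dim (geometric mean under 8), 14.7% were as high as Itga3 on the shHIF-2a array against control.

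**Figure D2:**
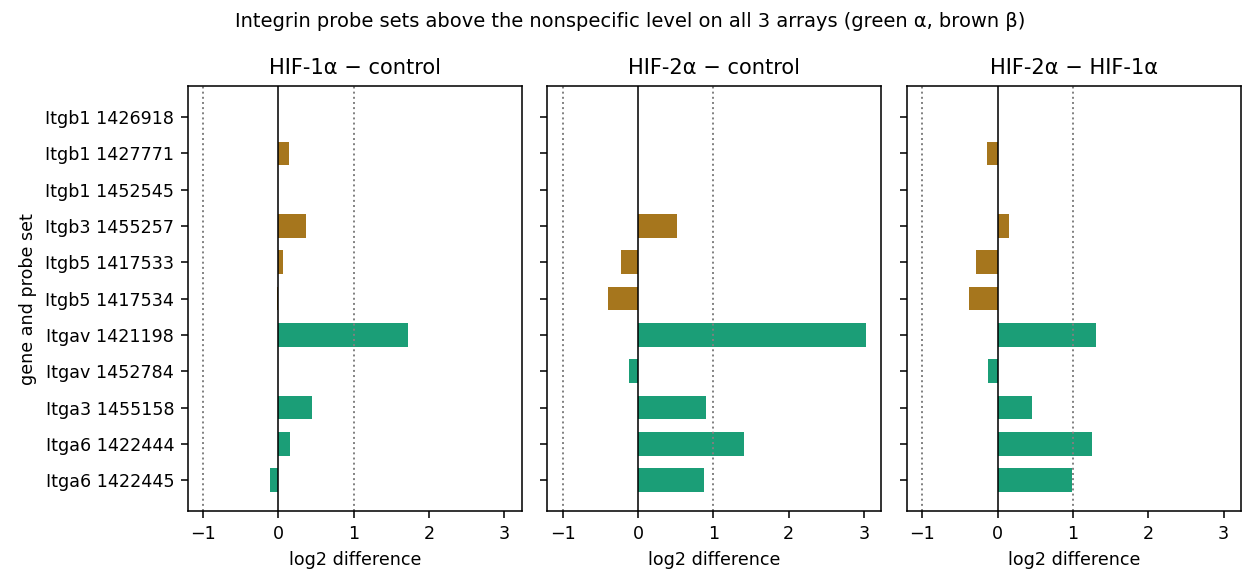
Log2 differences (bars) of the 11 integrin probe sets above the nonspecific level on all arrays, in 3 panels for the shHIF-1a array minus control, the shHIF-2a array minus control and the shHIF-2a minus the shHIF-1a array. Dotted lines mark 2-fold. Only Itgav 1421198_PM_at passes 2-fold in the first panel, and it and Itga6 1422444_PM_at do in the others.

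Counted by probe set, 2 of the 11 were at least 2-fold higher on the shHIF-2a array than on control (background 6.96% of 12069), 1 was on the shHIF-1a array (background 3.63%), and 2 were on the shHIF-2a array against the shHIF-1a array (background 0.771%). None was 2-fold lower in any comparison, for which the background was 0.456%, 0.0497% and 0.713%. The comparisons with control share 1 control array. By any amount, 5 of the 11 were higher and 3 lower on the shHIF-2a array than on control, against 64.2% and 19.5% of the 12069. On the shHIF-1a array 6 were higher and 2 lower than control, against 63.9% and 15.6%. Between the shHIF-2a and shHIF-1a arrays 5 were higher and 4 lower, against 41.9% and 25.7%. The α probe sets made up most of the higher ones on the shHIF-2a array: 4 of 5 α probe sets and 1 of 6 β probe sets were above control, and 1 α and 2 β probe sets were below it. The 5 α probe sets belong to 3 genes and the 6 β probe sets to 3, so a gene can enter more than 1 time. The 4 higher α probe sets all had a geometric mean intensity under 64. The part of brightness in this split was not tested. On the shHIF-1a array 3 of 5 α and 3 of 6 β probe sets were above control. Dim probe sets were higher on both shRNA arrays throughout the table: among the 6925 with a geometric mean intensity of 8 to 64, the median log2 difference from control was 0.20 on the shHIF-2a array and 0.15 on the shHIF-1a array, and 8.78% and 4.55% were at least 2-fold higher. At 64 or more the medians were 0.00 and 0.00. The 4 integrin probe sets of 8 to 64 included every one past 2-fold. This split by brightness was made after the values were seen.

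**Figure D3:**
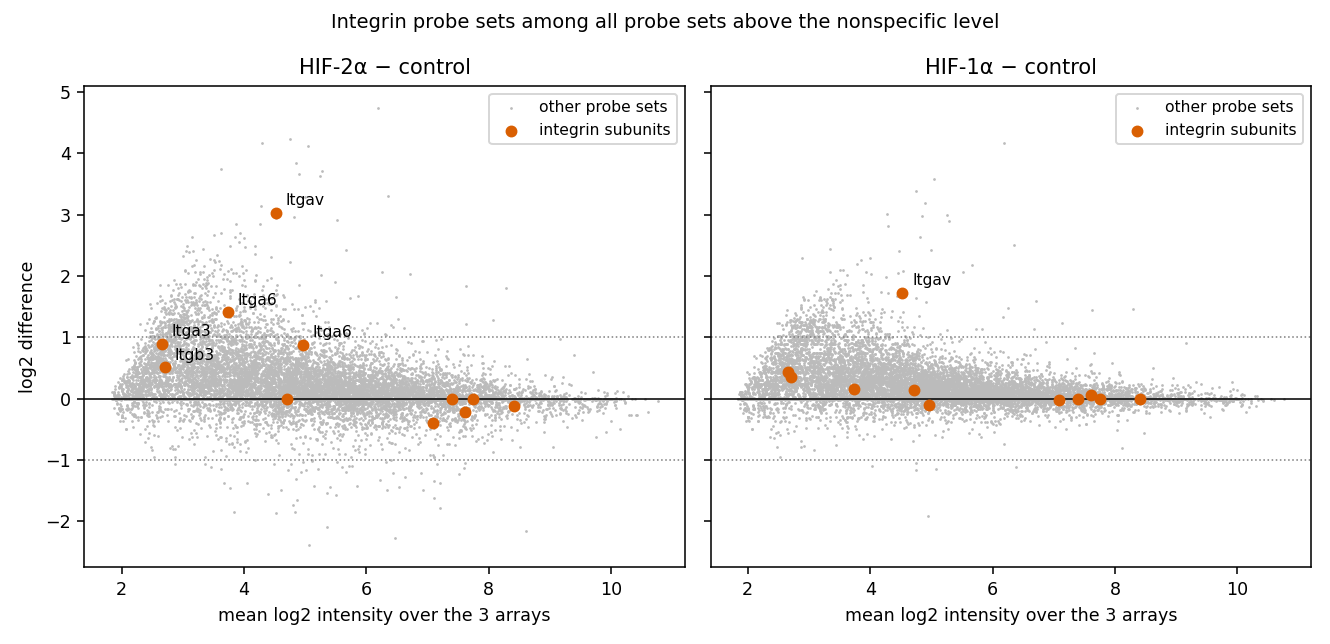
Log2 difference against mean log2 intensity for the 12069 probe sets above the nonspecific level on all arrays (grey), with the 11 integrin probe sets in orange, for the shHIF-2a (left) and shHIF-1a (right) arrays minus control. Grey points spread upward at low intensity, where Itgav 1421198_PM_at (3.03 and 1.72) and Itga6 lie, and the bright integrin probe sets lie between -0.40 (Itgb5 1417534_PM_at) and 0.00 on the left.

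Most integrin subunits known from other tissues lay under the nonspecific level. Of 15 further subunit genes on the array 13 were under the nonspecific level on every array, among them the leukocyte chains Itgb2 (1.47 on each array), Itgal (1.21 on each) and Itgam (0.86 on each), the platelet chain Itga2b (3.02 on each) and the epithelial chains Itgb4 (at most 2.21) and Itgb6 (at most 1.43). The exceptions were Itgb7 and Itga7. Itgb7, the β chain of lymphocyte homing receptors, read 28.3 on the shHIF-2a array, 18.9 on the shHIF-1a array and 7.96 on the control array. Its log2 differences from control were 1.83 and 1.25, and the shHIF-2a array was 0.58 above the shHIF-1a array. Its α partners Itga4 and Itgae were under the nonspecific level. Itga7, a laminin-binding chain of muscle, read 3.75, 3.75 and 5.29 in the same order.

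Mesenchymal markers went both ways on the shHIF-2a array. Of 10 above the nonspecific level, 6 were lower than control and 4 (Pdgfra, Cd44, Eng and Lepr) higher. Their median log2 difference was -0.04, against 0.14 over all genes. Among all probe sets above that level on every array, 19.5% were lower and 64.2% higher. Cxcl12, a chemokine of marrow stroma, read 72.3 on the shHIF-2a array, 177.9 on the shHIF-1a array and 249.96 on the control array, and Thy1 read 6.72, 12.4 and 13.1. Of the 10 markers, 1 (Cxcl12) was at least 2-fold lower than control on the shHIF-2a array, as were 46 of all 8886 genes counted. In the shHIF-2a array 2 (Cxcl12 and Pdgfrb) were at least 2-fold lower than on the shHIF-1a array, as were 74 of 8878 genes. The summed intensity of all 11 markers on the array was 2650, 2935 and 2861. Markers of other cells were read beside these values. Of 16 blood-cell markers on the array 3 passed the nonspecific level on the shHIF-2a array, 2 on the shHIF-1a array and 2 on the control array: Cd14 and Cd34 on all and the macrophage gene Cd68 at 7.24 on the shHIF-2a array, against 3.02 and 1.59 on the shHIF-1a and control arrays. Their summed intensity was 254.8, 220.3 and 228.1. The defining genes Ptprc, Adgre1, Csf1r, Cd3e and Lyz2 were under the nonspecific level on every array. Of 9 endothelial markers only Egfl7 passed it, at 5.45, 5.45 and 4.64 for a count of 1 on each array, with a summed intensity of 15.0, 14.1 and 14.2. Of 7 epithelial markers 1 passed it, Krt18 at 4.64 on the shHIF-2a array, and the sum was 13.2, 10.8 and 10.8. Of 7 smooth muscle markers 2 passed it on every array, Acta2 and Itga7 (also in the list of further subunits), with sums of 244.8, 442.4 and 386.0. The part of these cells in the integrin values was not tested.

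The ligands of these receptors were lower as a list on the shHIF-2a array. Of 25 ligand genes counted there, 16 were lower than control, 6 higher and 3 equal. Their median log2 difference was -0.24, against 0.14 over all genes. Among the 12069 probe sets above the nonspecific level on all arrays, 19.5% were lower than control and 64.2% higher. At intensities of 64 or more, where the 3 brightest ligand genes lie, the median over all probe sets was 0.00. The hybridisation controls given above were lower on the shHIF-2a array too, and their part in the ligand values was not tested. At least 2-fold apart were 1 lower gene, the type I collagen gene Col1a1, and 1 higher gene, Edil3, whose product binds αv integrins. Over both directions that count is near the background of 8.14% of all genes. By direction, 677 of all 8886 genes counted were at least 2-fold higher and 46 at least 2-fold lower. Col1a1 read 48.1 on the shHIF-2a array, 126.9 on the shHIF-1a array and 130.4 on the control array. Edil3 read 12.5, 9.69 and 4.64 in the same order and was 1.06 above control on the log2 scale on the shHIF-1a array. Tgfbi, an integrin-binding matrix protein, read 44.7, 88.7 and 75.0. The 3 ligand genes with the highest mean intensity were fibronectin (Fn1), the type III collagen gene Col3a1 and the nidogen gene Nid1. Fn1 read 833.2 on the shHIF-2a array, 909.3 on the shHIF-1a array and 944.9 on the control array. Col3a1 read 705.0, 1239 and 1030, and Nid1 640.3, 728.8 and 755.1. All 3 were lowest on the shHIF-2a array, with log2 differences from control of -0.18, -0.55 and -0.24. Between the shHIF-2a and shHIF-1a arrays 17 ligand genes were lower, 6 higher and 2 equal, with a median of -0.13 against 0.00 over all genes. Of the 12069 probe sets 25.7% were lower and 41.9% higher in that comparison. On the shHIF-1a array 13 of 24 ligand genes were higher than control, 8 lower and 3 equal. Their median was 0.08 against 0.10 over all genes, and 63.9% of the 12069 probe sets were higher and 15.6% lower.

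Among genes of the adhesion complex, which couples integrin tails to actin, 0 were 2-fold apart in any comparison. The background was 8.14% for the shHIF-2a array against control, 4.14% for the shHIF-1a array against control and 2.02% between the shHIF-2a and shHIF-1a arrays. Of 38 counted on the shHIF-2a array 24 were higher than control, 8 lower and 6 equal, with a median of 0.08 against 0.14 over all genes. These counts lie near the 64.2% higher and 19.5% lower among all probe sets above the nonspecific level. Of 37 on the shHIF-1a array 25 were higher, 7 lower and 5 equal, with a median of 0.07 against 0.10. The largest differences were those of Tns2 (tensin), Pdlim5 and Parva (parvin). Tns2 read 19.4 on the shHIF-2a array, 20.4 on the shHIF-1a array and 10.8 on the control array. Pdlim5 read 115.3, 84.6 and 62.6, and Parva 31.6, 29.5 and 20.3. All 3 were lowest on control. Among the brightest, the actin crosslinker Actn1 read 326.9, 281.2 and 214.3, whereas Tns3 read 255.2, 252.0 and 252.0 and Lasp1 196.5, 199.3 and 195.6. Talin (Tln1), the activator that binds β tails, read 51.1 on each array, and kindlin-2 (Fermt2) read 164.8 on both shRNA arrays and 170.0 on control.

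**Figure D4:**
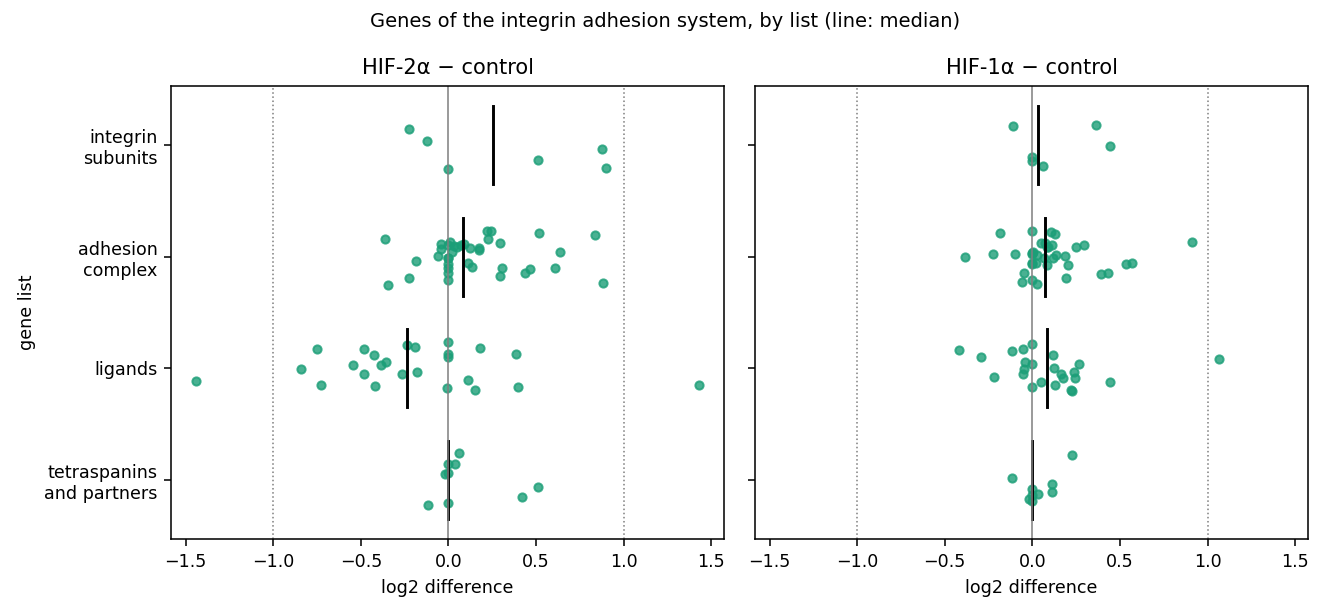
Log2 differences from control of the genes of 4 lists, each gene by its brightest probe set and values under 3.47 raised to it, for the shHIF-2a (left) and shHIF-1a (right) arrays. Vertical black lines are list medians, which on the left are 0.26 for the integrin subunits, 0.08 for the adhesion complex and -0.24 for the ligands, and dotted lines mark 2-fold.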

How the data were processed

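RNA of 3 mouse mesenchymal progenitor cultures was measured on 1-colour Affymetrix arrays from 1 µg of total RNA, biotin-labelled per the labels' protocols, and each array was assigned to its group by its title. The authors deposited 1 table of RMA intensities, linear in scale as their range shows (0.63 to 1747). Per the submitters' processing notes the method was RMA; no version or setting was found in the labels. Probe sets were named by GEO's platform annotation, with symbols updated by Entrez identifier through RefSeq GRCm38.p6 (28689 of 28898 probe sets with 1 gene matched). The 551 probe sets with several genes, the 15588 unlisted and the 104 controls stayed out of gene counts.

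The deposited intensities were taken to log2 with nothing added and no further scaling. With 1 array a group no test was run, and a difference of at least 2-fold was counted. The code for the counting was checked on simulated data, which does not measure the error of these arrays. Named genes were the subunits and, in each list, the 3 genes with the highest mean and up to 3 with the largest difference; Tln1, Fermt2 and the single subunits and markers named beyond that were chosen after their values were seen. The subunits and lists were chosen with earlier results of these data known. Lists covered other integrin subunits, the adhesion complex, ligands, tetraspanins and partners, and markers of mesenchymal, blood, endothelial, epithelial and smooth muscle cells. Alternatives changed the zero point of the scale, the scaling (cyclic loess, limma 3.58.1), the probe set used, the minimum and the nonspecific level.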

Additional observations from a re-analysis of the deposited data

How the results depend on the processing

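No paired analysis was possible because each group has 1 array. Without replicates, a median was counted as moved when it shifted by more than the pooled SD between probe sets of a gene. The number of subunit genes past 2-fold was 0 in all 3 comparisons and stayed 0 under 5 of the 6 alternatives listed in the methods. Requiring the nonspecific level on both arrays or an intensity of 64 can only remove genes, and adding 32 can only shrink a difference. Each array's own level added at most Itga1 and left the values of the other genes unchanged. Among these 5, cyclic loess alone could thus have raised the count for the 6 genes above the level. With the mean of a gene's probe sets the number was 1 (Itga6) for the shHIF-2a array against control and 1 against the shHIF-1a array. With the dimmest probe set above the nonspecific level, an alternative chosen after seeing the data, it was 2, 1 and 2 for the shHIF-2a array against control, the shHIF-1a array against control and the shHIF-2a against the shHIF-1a array, and the medians of the shHIF-2a array were 0.71 against control and 0.30 against the shHIF-1a array. Requiring an intensity of 64 left 3 subunit genes, with a median of -0.12 in both of those comparisons. Cyclic loess moved the median of all genes from 0.14 to 0.03 for the shHIF-2a array against control. It kept Itgav 1421198_PM_at at 2.85 and Itga6 1422444_PM_at at 1.19 there, and turned Itga6 1422444_PM_at from 0.16 to -0.02 for the shHIF-1a array. With 32 added before log2, Itgav 1421198_PM_at was 1.26 and 0.53 against control on the shHIF-2a and shHIF-1a arrays, and Itga6 1422444_PM_at was 0.46 on the shHIF-2a array. Adding 32 shrinks the differences of dim probe sets most, whatever their source. How far low intensity limits these values was not tested. The count of all genes past 2-fold was 723, 364 and 179 in the same order of comparisons, 44, 17 and 18 with 32 added, and 66, 16 and 44 at a minimum of 64. With the mean of a gene's probe sets it was 470 and 210 against control. Cyclic loess took the split for the shHIF-2a array from 677 higher and 46 lower to 438 higher and 71 lower. The cause of these changes was not tested beyond the smaller number of genes at the minimum of 64. Of 159 values for single genes and probe sets under those alternatives, 138 moved by less than that SD, 21 by more, and none that was past 2-fold changed sign. The 138 include values that could not move, because the setting only selected genes. These were 18 with the level required on both arrays, 18 with each array's own level and 9 at the minimum of 64. Under cyclic loess and with 32 added, a gene's brightest probe set entered both as the gene and as a probe set. Among values not past 2-fold, Itgav turned from -0.12 to 0.41 against control and from -0.12 to 0.22 against the shHIF-1a array, both for the shHIF-2a array with the mean of probe sets. Itga6 turned from -0.11 to 0.03 there for the shHIF-1a array against control. With each array's own nonspecific level, 7 subunit genes, Itga1 included, were counted in both comparisons that involve the shHIF-1a array, in place of 6.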

Other observations

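Tetraspanins and other membrane partners of integrins, which cluster with them and alter their trafficking, were above the nonspecific level for 9 of 10 genes on every array, and 0 of these 9 were 2-fold apart in any comparison. With a background of 8.14%, 4.14% and 2.02% of all genes for shHIF-2a against control, shHIF-1a against control and shHIF-2a against shHIF-1a, a count of 0 among 9 genes is near the background. The list's median log2 difference was 0.00 in all 3 comparisons. Cd9, a tetraspanin partner of β1 integrins, read 474.9 on the shHIF-2a array, 484.8 on the shHIF-1a array and 474.9 on the control array. Cd81 read 573.9, 573.9 and 582.3, and basigin (Bsg) 739.7, 739.7 and 802.1. The genes with the largest differences included Slc3a2, the heavy chain of an amino acid transporter that binds β1 and β3 tails, at 207.3 on the shHIF-2a array, 170.5 on the shHIF-1a array and 145.7 on the control array. Plaur, the urokinase receptor, read 84.3, 68.0 and 62.9 in the same order. Both were lowest on control.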
